A study of Mus musculus with 2 samples.

Results

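Early ganglion cells were taken as cells that carry transcripts of the ganglion cell determinants *Isl1* or *Pou4f2* and few or no neurofilament transcripts, which mark a growing axon. They were picked by transcript limits among the kept cells of mouse eyecups at E13.5. A member had at least 2 unique molecular identifiers (UMIs, each standing for a captured transcript) of *Isl1* and *Pou4f2* together. It had fewer than 4 UMIs of *Nefl*, *Nefm* and *Sncg* together, fewer than 2 of *Top2a* and *Mki67*, and fewer than 3 of *Eomes*, *Lhx9*, *Tbr1* and *Rspo3*. These limits gave 867 members among 17458 kept cells of 22987 deposited barcodes. The control library held 484 members in 7331 kept cells and the DKO library held 383 in 10127.

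The study asked how the homeodomain factors Six3 and Six6 act together in the embryonic retina. The control library came from eyecups (retina, lens and blood) of a Six3+/-;Six6+/- embryo, which as labelled carries a mutant allele of each gene. The DKO library came from eyecups of a Six3F/F;Six6-/-;a-Cre embryo, in which *Six6* is lost in the germline and floxed *Six3* is removed by Cre. The Cre is driven by the α-enhancer of *Pax6* in the peripheral retina, and the central retina keeps *Six3*, so the DKO cells are a mixture. The DKO embryo was chosen by GFP-positive rosettes in its retina and the control by normal eyecups without GFP. Each genotype was 1 library, so no difference below has a replicate check, and embryo, library and genotype cannot be told apart. Intervals are exact Poisson or exact binomial (Clopper-Pearson) 95% intervals and cover counting error only.

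Retinal ganglion cells are the first neurons of the retina and the only ones that send axons to the brain. Neurogenic progenitors turn on the bHLH factor Atoh7, which makes them competent for this fate, and then leave the cell cycle. Isl1 and Pou4f2 (also called Brn3b) then switch on the ganglion cell programme, and axon growth, guidance and excitability genes follow as the cell matures.

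The median member was read at 6302 UMIs over 2548 genes in the control library. In the DKO library the median was 5203 UMIs over 2250 genes. Their summed depth was 3112397 and 2067672 UMIs. The libraries shared 22 cell barcodes, and 1 DKO member and 0 control members carried such a barcode. Y-linked transcripts were present and *Xist* was at 0 UMIs in the members of both libraries. Free hemoglobin RNA differed: *Hba-a2*, a near-identical copy of *Hba-a1*, had 158 UMIs in control members and 3 in DKO members, and *Hbb-y* had 1277 and 369. Of the 1767 *Hbb-bs* UMIs of DKO members, 1427 came from 1 cell. Scrublet scored 14 control and 9 DKO members as doublets, and these stayed in.

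The label was checked against its marker genes that the limits did not use. *Ebf1*, a transcription factor of differentiating ganglion cells, had a UMI in 56.0% of control and 59.5% of DKO members. *Elavl4*, a neuronal RNA-binding protein, was found in 71.9% and 84.6%. *Cntn2*, an axonal cell adhesion molecule, was found in only 15.3% and 17.8%. After each cell was thinned to 2000 UMIs (16 control and 10 DKO members were shallower and left out), these shares were 39.1% and 41.0% for *Ebf1*, 45.3% and 61.1% for *Elavl4* and 6.20% and 8.31% for *Cntn2*. Red blood cells, which should lack these transcripts, gave thinned shares between 0.122% and 1.22% for the same genes, at median depths of 7824 (control) and 5705 (DKO) UMIs. All 3 markers thus stood above the free RNA background in both libraries, with *Cntn2* the sparsest. Atoh7 cells, with at least 3 *Atoh7* but fewer than 2 *Isl1* and *Pou4f2* UMIs, were a neighbouring class. Their thinned *Cntn2* shares were 1.51% in the control and 5.92% (4.34 to 7.87) in the DKO. The DKO interval overlapped that of DKO members (5.72 to 11.6), so *Cntn2* did not set those members apart. *Ebf1* (9.91% and 16.0%) and *Elavl4* (18.3% and 38.9%) were sparser in Atoh7 cells than in members.

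Members made up 6.60% (6.04 to 7.19) of kept control cells and 3.78% (3.42 to 4.17) of kept DKO cells. The share of cells that met the *Isl1* and *Pou4f2* limit by itself was 21.7% in the control and 21.1% in the DKO. The neurofilament limit left out 965 of the 1589 such cells in the control (60.7%) and 1684 of 2132 in the DKO (79.0%). Late ganglion cells, which met the same limits but had 4 or more neurofilament and *Sncg* UMIs, were 12.1% and 15.4% of kept cells. Members were therefore 35.4% (32.8 to 38.0) of early plus late ganglion cells in the control and 19.8% (18.0 to 21.6) in the DKO. The limit on *Eomes*, *Lhx9*, *Tbr1* and *Rspo3* left out 0 control and 46 DKO cells, 11 of them by that limit alone. Just outside the limits lay 206 control and 293 DKO cells with 1 UMI of *Isl1* or *Pou4f2*, and 24 and 25 cells with 4 neurofilament and *Sncg* UMIs. Just inside lay 71 (14.7%) control and 121 (31.6%) DKO members with 2 UMIs of *Isl1* and *Pou4f2*, and 40 (8.26%) and 39 (10.2%) with 3 neurofilament and *Sncg* UMIs.

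**Figure D1:**
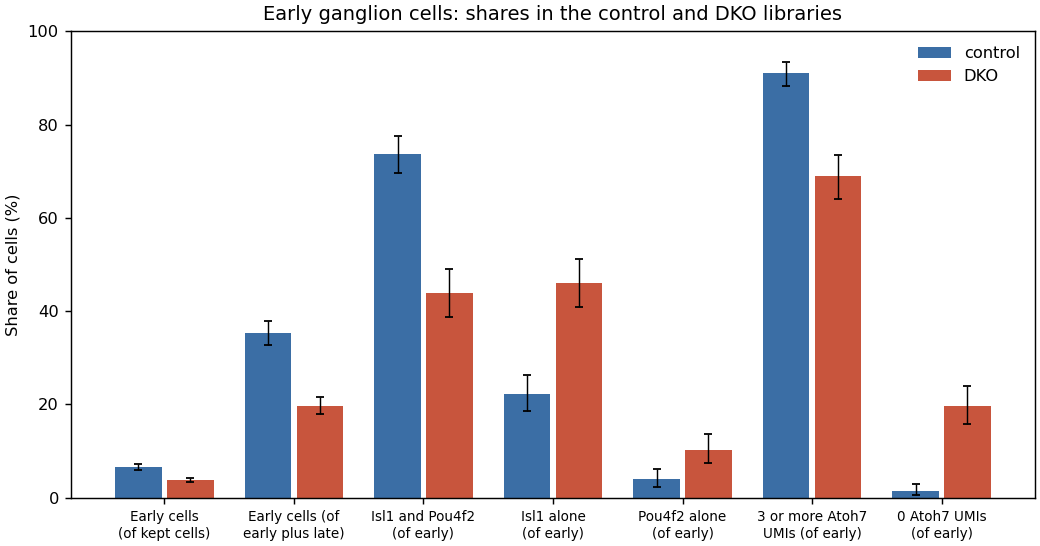
Share of cells (%) in the control and DKO libraries, with exact binomial 95% intervals (counting error only). The first pair gives early ganglion cells among kept cells (6.60% and 3.78%), the second among early plus late ganglion cells, and the others divide the early ganglion cells by their *Isl1*, *Pou4f2* and *Atoh7* UMIs; cells with 0 *Atoh7* UMIs were 1.45% of control and 19.6% of DKO members.

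The members were divided by these genes. In the control, 357 members (73.8%) had both *Isl1* and *Pou4f2*, 108 (22.3%) had *Isl1* alone and 19 (3.93%) had *Pou4f2* alone. In the DKO, 168 (43.9%) had both, 176 (46.0%) had *Isl1* alone and 39 (10.2%) had *Pou4f2* alone. Control members were deeper, and the limits used both genes, so these shares are a description. After thinning to 2000 UMIs, *Pou4f2* was found in 48.9% (44.3 to 53.6) of control and 42.4% (37.3 to 47.6) of DKO members, against 77.7% and 54.0% before, and the thinned intervals overlapped. *Isl1* was found in 77.8% and 61.9% after thinning. *Atoh7*, which no limit used, had at least 3 UMIs in 441 control members (91.1%, 88.2 to 93.5) and 264 DKO members (68.9%, 64.0 to 73.5). It was at 0 UMIs in 7 control members (1.45%) and 75 DKO members (19.6%, 15.7 to 23.9). The 75 DKO members without *Atoh7* had a median depth of 5544 UMIs, above the 5066 of DKO members with at least 3 *Atoh7* UMIs, and 88.0% of them had no *Pou4f2* UMI. *Isl1* without *Pou4f2* and *Atoh7* was found in 66 DKO and 5 control members. The 7 control members at 0 *Atoh7* UMIs were shallow, with a median of 1480 UMIs. The DKO cells that met the rule thus went against the label in part, and values for members with at least 3 *Atoh7* UMIs are given below where they move a named value by more than 1.5-fold or end a 2-fold call.

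*Six3* and *Six6* were checked first. *Six3* (chr17:85613608-85629302 in mm10) stood at 436 CPM (UMIs per 1000000 UMIs of the members, 413 to 460) in the control and 414 CPM (386 to 442) in the DKO, a log2 ratio of DKO over control of -0.08 (-0.20 to 0.05). It was found in 413 of 484 control and 285 of 383 DKO members. The floxed part is exon 1 and the 3′ tags lie outside it, but the study treats lower 3′ coverage of *Six3* as a mark of the deletion. By that mark, DKO members as a group had no lower *Six3* level beyond counting error. The control as labelled carries a mutant *Six3* allele, and the DKO cells are a mixture. A summed level therefore cannot show which members kept *Six3*. After thinning, *Six3* was found in 55.6% (50.9 to 60.1) of control and 47.5% (42.3 to 52.7) of DKO members. Cre transcripts were not analysed here. *Six6* (chr12:72939892-72944899) stood at 187 CPM (172 to 202) in the control and 51.3 CPM (42.0 to 62.0) in the DKO, a log2 ratio of -1.86 (-2.18 to -1.56). Its transcripts were thus lower by more than 3-fold in the DKO but not absent, with a UMI in 73 DKO members. Control members with 0, with 1 or 2, and with 3 or more *Six3* UMIs numbered 71, 197 and 216. DKO members in these classes numbered 98, 140 and 145. In the DKO, *Tac1*, *Ina* and *Sp8*, described below, stood at 346, 1068 and 14.2 CPM in the first class. They stood at 414, 1478 and 39.7 CPM in the second, and at 467, 1237 and 40.3 CPM in the last.

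The genes that set control members apart from all other kept control cells, as a description, were led by *Sp8* (log2 ratio 4.26), *Ebf2* (3.67) and the microtubule-associated ubiquitin ligase gene *Trim9* (3.52), followed by *Gm14226*, *Nckap5*, *Rab15*, *Dlx1*, *Insm2*, *Clvs1* and *Acsl6* (2.84). Since they were chosen for high levels in control members, a lower level in DKO members is favoured by that choice, and no count is drawn from them. *Trim9* stood at 117 CPM (105 to 130) in control and 118 CPM (103 to 133) in DKO members.

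Levels were compared for 3657 genes with at least 100 UMIs in the members of both libraries together and at least 50 CPM in either. Of these, 145 (3.96%) were at least 2-fold higher in DKO members and 29 (0.793%) at least 2-fold lower, 4.76% either way, and the median log2 ratio of all of them was -0.00. When members with at least 3 *Atoh7* UMIs were compared, 86 of the 145 were still at least 2-fold higher and 15 of the 29 at least 2-fold lower. The other 58 and 14 kept their direction with a smaller ratio, except *Cartpt*, which could no longer be compared. When the UMI and CPM minimums were applied anew to these members, 3565 genes could be compared, of which 73 were higher and 17 lower. Among members with both *Isl1* and *Pou4f2*, 48 of 3583 genes were higher and 16 lower. When cells were thinned to 2000 UMIs before members were chosen, 35 of 2446 genes were higher and 9 lower. Among the 15 highest were *Cartpt*, *Tac1*, *Rgs4*, *Ly6h*, *Akap6*, *Crabp1*, *Pcsk1n*, *Syt4*, *Clmp*, *Nrn1*, *Mapt*, *Gja1*, *Nrxn3* and *Rab6b*. The 15 lowest were *Gm14226*, *Eif4ebp1*, *Igfbp5*, *Sp8*, *Sfrp2*, *Six6*, *Fbxl7*, *Hes5*, *Ebf2*, *Sesn2*, *Txnip*, *Mthfd2*, *Gal*, *Slc7a1* and *Hey1*.

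**Figure D2:**
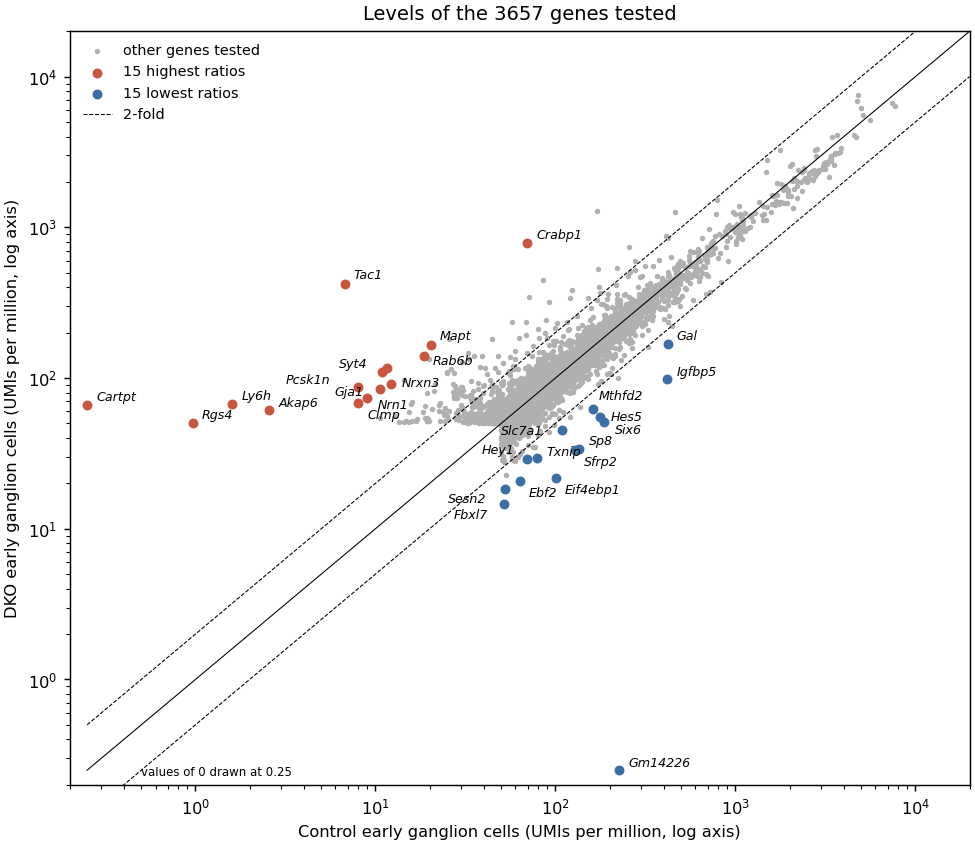
Level of each of the 3657 genes tested in control (x) and DKO (y) early ganglion cells, in CPM on log axes; dashed lines mark 2-fold. The 15 highest and 15 lowest ratios are coloured, and most are named: *Tac1* stands at 6.75 in the control and 420 in the DKO, and *Gm14226* at 227 in the control and 0 in the DKO (drawn near the bottom edge).

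Transcription factors of ganglion cells moved in both directions. Of 28 listed genes, 22 had at least 30 UMIs, and their median log2 ratio was 0.22 (-0.042 when members were thinned to 2000 UMIs), beside 0.02 for the 9307 genes at that minimum, of which 5.62% were at least 2-fold higher and 1.91% at least 2-fold lower. *Myt1l*, *Tshz2* and *Tshz3* were at least 2-fold higher, and *Ebf2* and *Eya2* at least 2-fold lower. Among members with at least 3 *Atoh7* UMIs the log2 ratios of *Myt1l* and *Tshz3* were 2.05 and 1.39, and that of *Eya2* was -0.76, under 2-fold. *Ebf2* (chr14:67233292-67430918), an early B-cell factor family member, stood at 63.3 CPM (54.8 to 72.8) in control and 20.8 CPM (15.1 to 28.0) in DKO members, a log2 ratio of -1.61. Its relatives *Ebf1* and *Ebf3* went the other way, from 289 to 404 CPM and from 152 to 204 CPM, log2 ratios of 0.48 (0.34 to 0.62) and 0.42 (0.23 to 0.61). The interval of the *Ebf2* ratio, -2.12 to -1.12, did not overlap those of its relatives. The listed high-mobility-group factor *Sox11* was level, at 2330 and 2316 CPM, as was *Onecut2* at 1278 and 1244 CPM.

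*Dlx1* and *Dlx2*, homeobox genes that act beside *Pou4f2* in ganglion cell differentiation, were lower in DKO members but by less than 2-fold. *Dlx1* stood at 301 CPM (282 to 321) in the control and 193 CPM (175 to 213) in the DKO, a log2 ratio of -0.64. *Dlx2* stood at 144 and 101 CPM, a log2 ratio of -0.51 (-0.76 to -0.27). In members with at least 3 *Atoh7* UMIs these ratios were -0.32 (-0.50 to -0.14) and -0.25 (-0.52 to 0.00), so both genes lay nearer to the control level in these cells. In members with both *Isl1* and *Pou4f2*, *Dlx1* stood at 319 and 270 CPM, and *Dlx2* turned direction, at 141 CPM (126 to 157) and 147 CPM (123 to 175) with overlapping intervals. The gene that led the control members was lower by more. This was *Sp8* (chr12:118846329-118852576), a zinc finger gene of the retinal and forebrain lineages, which stood at 136 CPM (123 to 149) and 33.9 CPM (26.4 to 42.8), a log2 ratio of -2.01, and remained -1.73 (-2.16 to -1.33) among members with at least 3 *Atoh7* UMIs. The limits themselves used *Isl1*, at 816 and 594 CPM, and *Pou4f2*, at 357 and 238 CPM, so these levels are a description.

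Neurogenic genes were likewise divided. Of 29 listed genes, 25 were measured, with a median log2 ratio of -0.17. At least 2-fold higher were 5 (20%), and 2 (8%) were at least 2-fold lower. The shares over all genes at the same minimum were 5.62% higher and 1.91% lower. *Atoh7* itself (chr10:63099651-63101279) stood at 2086 CPM (2036 to 2138) in control and 1340 CPM (1291 to 1391) in DKO members, a log2 ratio of -0.64. *Gadd45a*, a growth arrest gene of neurogenic progenitors, stood at 828 and 433 CPM, a log2 ratio of -0.94 (-1.05 to -0.83). *Hes6*, *Rassf4*, *Dll1* and *Mfng* were also lower by less than 2-fold, between -0.51 and -0.72. The higher genes were bHLH and zinc finger genes of neuronal precursors together with *Gadd45g*. *Neurog2*, a proneural bHLH gene, stood at 25.1 CPM (19.8 to 31.3) and 110 CPM (96.0 to 125), a log2 ratio of 2.13. *Nhlh2* stood at 68.4 and 236 CPM, *Nhlh1* at 29.9 and 86.6 CPM and *Insm1* at 102 and 231 CPM. For none of these 4 genes did the intervals of the libraries overlap.

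*Igfbp5*, an insulin-like growth factor binding protein found in early ganglion cells, was the largest drop among genes with a DKO level above 50 CPM. It stood at 418 CPM (395 to 441) in control and 98.2 CPM (85.1 to 113) in DKO members, a log2 ratio of -2.09 (-2.31 to -1.87). It had a UMI in 43.8% of control and 10.2% of DKO members after thinning (60.3% and 18.8% unthinned), beside 0.318% and 1.46% of red blood cells. The other strongly lower neurogenic-list gene was *Gm14226* (chr2:155018266-155027104), with 705 UMIs in 263 control members and 0 in DKO members, which is at least 156-fold lower against a floor of 3 UMIs over the group. Over all kept cells it had 2043 UMIs in the control and 6 in the DKO, so this difference was not particular to these members, and whether it goes with the mutations or with the embryo and its background cannot be told apart.

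All 20 listed progenitor genes were measured, with a median log2 ratio of -0.26. Of these, 2 (10%) were at least 2-fold lower and 1 (5%) higher, beside 1.91% and 5.62% of all genes at the same minimum. *Sfrp2*, a secreted Wnt modulator of naïve progenitors, stood at 129 CPM (117 to 142) and 33.4 CPM (26.0 to 42.2), a log2 ratio of -1.95. All other kept control cells had it at 1376 CPM, far above control members. The part of free RNA in the *Sfrp2* ratio was not tested. *Hes5*, a Notch target that represses neuronal differentiation, stood at 176 CPM (162 to 192) and 55.1 CPM (45.5 to 66.2), a log2 ratio of -1.68. *Hes1*, its relative, was the higher gene, at 6.10 and 16.4 CPM, but it had only 19 and 34 UMIs. Of 15 measured Notch pathway genes, a list chosen after values were seen, *Hes5*, *Hey1*, *Numb* and *Jag1* were at least 2-fold lower, *Hes1* was at least 2-fold higher, and the median was -0.29. *Hey1* stood at 69.1 and 29.0 CPM, a log2 ratio of -1.25 (-1.69 to -0.83). *Hey1* and *Jag1* were both at -0.91, under 2-fold, among members with at least 3 *Atoh7* UMIs.

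Genes of the axon and cytoskeleton were past 2-fold in 1 direction. Of 31 measured genes, 15 (48.4%) were at least 2-fold higher in DKO members and 0 at least 2-fold lower. Over all genes at the same minimum, 5.62% were higher and 1.91% lower. The lowest log2 ratio of the list was 0.10. The median log2 ratio was 0.97. *Ina*, the neuronal intermediate filament α-internexin, stood at 171 CPM (156 to 186) in control and 1279 CPM (1230 to 1328) in DKO members, a log2 ratio of 2.91 (2.77 to 3.04). After thinning, *Ina* had a UMI in 18.6% of control and 51.5% of DKO members (31.0% and 60.3% unthinned), beside 0.398% and 2.07% of red blood cells. *Mapt*, which encodes the microtubule protein tau, stood at 20.2 CPM (15.6 to 25.9) and 165 CPM (148 to 183), a log2 ratio of 3.03. *Dcx*, doublecortin of migrating young neurons, stood at 85.1 CPM (75.2 to 96.0) and 447 CPM (419 to 477), a log2 ratio of 2.39. None of these genes was part of the neurofilament limit, and no interval overlapped.

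Among the rest of that list, *Stmn4* (2.75), *Tubb2a* (2.29), *Fez1* (1.96), *Gng3* (1.79), *Stmn3* (1.64) and the growth cone gene *Gap43* (1.52) had log2 ratios above 1.5. *Tubb2a* and *Tubb2b* are near-identical copies whose reads could be split. The abundant *Tuba1a*, *Stmn2*, *Tubb3* and *Map1b* were higher by less than 2-fold, with log2 ratios of 0.64, 0.66, 0.36 and 0.15. When only members with at least 3 *Atoh7* UMIs were compared, *Ina* stood at 175 and 773 CPM (log2 ratio 2.14), *Mapt* at 18.8 and 68.0 CPM (1.85) and *Dcx* at 82.5 and 311 CPM (1.91). The ratios of *Stmn4*, *Tubb2a* and *Fez1* were then 1.90, 1.56 and 1.22, and that of *Stmn3* was 0.99, under 2-fold. The list's median was then 0.67, and it was 0.46 among members with both *Isl1* and *Pou4f2*. When DKO members were weighted to the control shares of cells with 0, 1, 2 and 3 neurofilament and *Sncg* UMIs, the median was 0.91.

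Guidance receptors and adhesion genes differed gene by gene. Of 28 measured genes, 12 (42.9%) were at least 2-fold higher and 1 (3.57%) lower, with a median log2 ratio of 0.48. The shares over all genes at the same minimum were 5.62% higher and 1.91% lower. *Nrp1*, a semaphorin co-receptor, had 6 UMIs in control and 76 in DKO members (1.93 and 36.8 CPM). The adhesion molecule genes *Nrcam*, at 15.7 and 67.7 CPM, *Ncam1*, at 174 and 399 CPM, and *L1cam*, at 22.8 and 51.7 CPM, were also higher. Among members with at least 3 *Atoh7* UMIs the log2 ratio of *Nrp1* was 2.81, and *Ncam1* (0.86) and *L1cam* (0.29, -0.32 to 0.88) were no longer past 2-fold. *Alcam*, another adhesion gene of ganglion cell axons, was the lower member, at 24.7 CPM (19.5 to 30.9) and 9.19 CPM (5.53 to 14.3), with a ratio of -0.89 in those members. The netrin receptor gene *Dcc* (0.10, -0.11 to 0.31) and the ephrin receptor gene *Epha5* (-0.04, -0.17 to 0.10) had intervals that included 0, and the Slit receptor gene *Robo2* stood at -0.25 (-0.47 to -0.04). The list's median was 0.05 among members with both *Isl1* and *Pou4f2*, and to -0.00 when members were thinned to 2000 UMIs. Of 13 measured guidance ligands, 3 were at least 2-fold higher: *Efnb2* (99.9 and 215 CPM), *Efnb1* (8.67 and 24.2 CPM) and *Draxin* (25.4 and 53.2 CPM, and 0.95 on the log2 scale in members with at least 3 *Atoh7* UMIs). *Slit2* and *Sema6a* were level, with log2 ratios of -0.03 and 0.01.

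Of 24 measured synapse and excitability genes, 14 (58.3%) were at least 2-fold higher and 0 lower, with a median of 1.13. The shares over all genes at the same minimum were 5.62% higher and 1.91% lower. *Slc17a6*, the vesicular glutamate transporter of ganglion cells, had 0 UMIs in control and 55 in DKO members, at least 27.6-fold higher against the floor of 3 UMIs over the group, a bound that was 5.52-fold among members with at least 3 *Atoh7* UMIs. The AMPA receptor gene *Gria2* stood at 35.3 and 139 CPM, and at 36.6 and 84.3 CPM among members with at least 3 *Atoh7* UMIs. *Chrna3*, a nicotinic receptor subunit gene of early ganglion cells, went the other way, at 171 CPM (157 to 186) and 106 CPM (92.8 to 121), a log2 ratio of -0.68. Of 20 measured neuronal RNA-binding protein genes, *Celf4*, *Celf5*, *Celf6* and *Khdrbs2* were at least 2-fold higher and *Mbnl2* at least 2-fold lower. Among members with at least 3 *Atoh7* UMIs, *Celf4* (1.49) and *Celf5* (2.46) had smaller log2 ratios and *Celf6* (0.71) and *Khdrbs2* (0.89) were under 2-fold. *Elavl4* stood at 377 and 607 CPM, and its relative *Elavl3* at 1020 and 935 CPM.

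**Figure D3:**
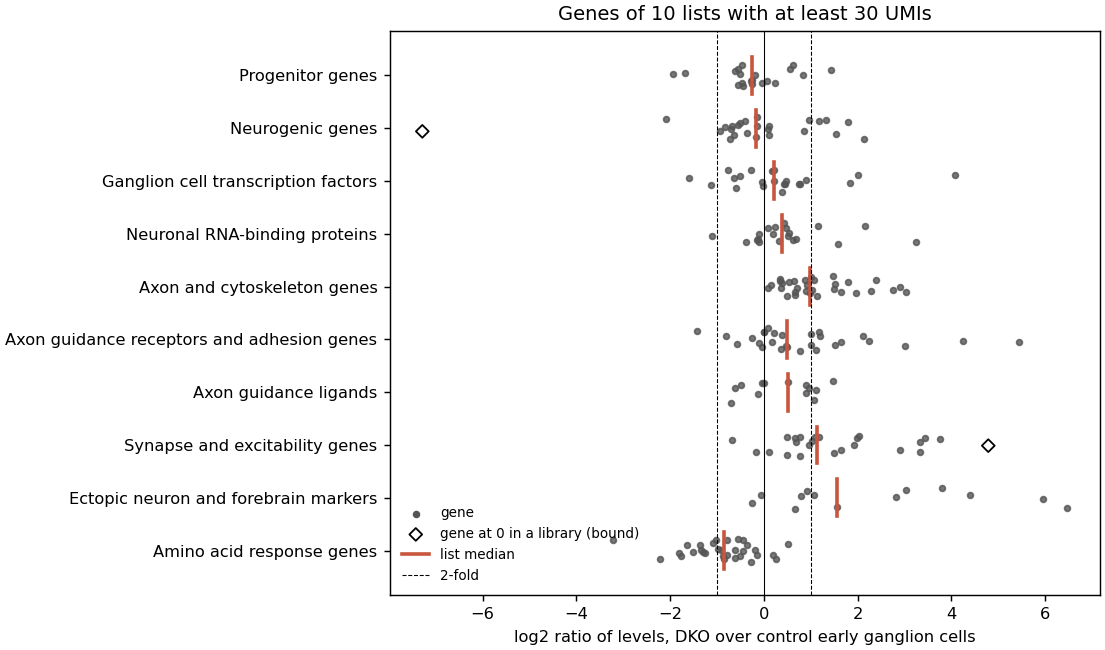
log2 ratio of levels, DKO over control early ganglion cells, for each gene with at least 30 UMIs in 10 lists; red bars are list medians, dashed lines 2-fold, and open diamonds genes at 0 in a library, drawn at their bound. The axon and cytoskeleton genes all lie above 0, and the amino acid response genes, a list chosen after values were seen, have a median of -0.85.

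Markers of the ectopic neurons of this mutant and of the forebrain were detected in DKO members even though the rule left out cells with 3 or more *Eomes*, *Lhx9*, *Tbr1* and *Rspo3* UMIs. Of 20 listed genes, 13 were measured and 8 (61.5%) were at least 2-fold higher, beside 5.62% of all genes at the same minimum. Their median was 1.56 (0.86 among members with at least 3 *Atoh7* UMIs and 0.71 among those with both *Isl1* and *Pou4f2*). This list was drawn from genes reported for these libraries and is not independent of them. *Tac1* (chr6:7554879-7565834), the gene of the neuropeptide precursor of substance P, stood at 6.75 CPM (4.18 to 10.3) in control and 420 CPM (392 to 449) in DKO members, a log2 ratio of 5.96 (5.34 to 6.66), which was 4.35 (3.70 to 5.07) among members with at least 3 *Atoh7* UMIs. It had a UMI in 1.28% of control and 20.9% of DKO members after thinning (3.31% and 27.9% unthinned), beside 0% and 0.365% of red blood cells, where 0 of 1256 thinned control cells had a UMI. *Uncx*, a paired-type homeobox gene, stood at 25.7 CPM (20.4 to 32.0) and 180 CPM (163 to 200), a log2 ratio of 2.81. *Lhx2*, a LIM homeobox gene of the eye field and forebrain, stood at 63.0 CPM (54.5 to 72.4) and 185 CPM (167 to 205). *Lhx5* had 4 and 37 UMIs and *Dbx1* 0 and 21, of which 5 were in members with at least 3 *Atoh7* UMIs. The forebrain genes *Emx1*, *Neurod6* and *Trp73* were at 0 UMIs in the members of both libraries, *Emx2* had 0 and 2, and *Reln* stood at 117 and 112 CPM.

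Pairs of genes within DKO members were picked after values were seen and are given as a description of 1 library, with no match for depth. Among DKO members with *Tac1*, 75 of 107 (70.1%) had *Uncx*, against 75 of 276 (27.2%) of those without. *Lhx2* was found in 72 of the 107 (67.3%) and 109 of the 276 (39.5%). *Six3* was found in 74.8% and 74.3%. *Pou4f2*, which the limits used, was found in 33.6% and 62.0%.

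Axis patterning genes gave 4 of 15 measured genes (26.7%) at least 2-fold higher and 1 (6.67%) lower, with a median of -0.18. The shares over all genes at the same minimum were 5.62% higher and 1.91% lower. *Crabp1*, a retinoic acid binding protein gene of maturing ganglion cells, stood at 69.7 CPM (60.8 to 79.6) in control and 793 CPM (755 to 833) in DKO members, a log2 ratio of 3.51; 179 of its 1640 DKO UMIs were in 1 cell. Among members with at least 3 *Atoh7* UMIs it stood at 70.6 and 286 CPM, a log2 ratio of 2.02. *Aldh1a1*, a retinoic acid synthesis gene of the dorsal retina, stood at 89.0 and 242 CPM. *Foxd1*, a forkhead gene of the ventrotemporal retina, was the lower gene, at 31.2 CPM (25.3 to 38.0) and 8.71 CPM (5.16 to 13.8). Of 15 measured Wnt, FGF and actin regulators, a list of 24 genes that holds those the study names and others of these pathways, 3 were at least 2-fold higher and 2 lower, with a median of 0.06. *Wls*, which is needed to secrete Wnt proteins, had 0 UMIs in control and 71 in DKO members, at least 35.6-fold higher against the floor of 3 UMIs over the group, but 43 of the 71 were in 11 of the members without *Atoh7*, and among members with at least 3 *Atoh7* UMIs the bound was 17.9-fold. *Fzd1*, a Wnt receptor gene, stood at 2.89 and 27.1 CPM, and *Fgf9*, a fibroblast growth factor gene, at 59.8 CPM (51.5 to 69.0) and 28.1 CPM (21.3 to 36.3). Among members with at least 3 *Atoh7* UMIs the *Fgf9* ratio was -0.84, under 2-fold.

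Neuropeptide and secretory granule genes, a list chosen after values were seen, gave 6 of 11 measured genes (54.5%) at least 2-fold higher and 1 (9.09%) lower. The shares over all genes at the same minimum were 5.62% higher and 1.91% lower. *Gal*, the galanin precursor gene, was the lower gene, at 420 CPM (397 to 443) in control and 169 CPM (152 to 187) in DKO members, a log2 ratio of -1.31. Among members with at least 3 *Atoh7* UMIs it was -0.91 (-1.09 to -0.74). *Pcsk1n*, a granule protein gene, stood at 8.03 and 87.1 CPM in 24 and 105 members. *Cartpt*, the gene with the highest ratio among the 3657 compared, rested on few cells: 8 DKO members held its 137 UMIs and 116 of them were in 1 cell.

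Genes of the amino acid response were past 2-fold in 1 direction. Of 31 measured genes on this list, also chosen after values were seen, 12 (38.7%) were at least 2-fold lower and 0 higher. The shares over all genes at the same minimum were 1.91% lower and 5.62% higher. The list had a median log2 ratio of -0.85 and a highest ratio of 0.52. *Eif4ebp1*, which encodes a brake on cap-dependent translation, stood at 101 CPM (90.0 to 113) in control and 21.8 CPM (15.9 to 29.1) in DKO members, a log2 ratio of -2.21. *Trib3* stood at 18.0 and 1.93 CPM, the mitochondrial folate enzyme gene *Mthfd2* at 161 and 62.4 CPM, and *Sesn2* at 52.7 and 18.4 CPM. The amino acid transporter gene *Slc7a1* stood at 109 and 45.5 CPM. *Atf4*, the transcription factor of this response, stood at 532 CPM (507 to 559) and 389 CPM (363 to 417), a log2 ratio of -0.45. *Eif4ebp1* was lower also in DKO Atoh7 cells and late ganglion cells, with log2 ratios of -2.10 and -1.44, as was *Mthfd2*, with -1.41 and -0.81. Of 13 measured immediate early genes, again chosen after values were seen, 2 (15.4%) were at least 2-fold higher and 1 (7.69%) lower. *Jun* stood at 44.3 and 181 CPM. Of 10 measured cell cycle exit genes, 1 was at least 2-fold higher: *Cdkn1c*, a cyclin-dependent kinase inhibitor gene, at 116 and 235 CPM (log2 ratio 0.75 among members with at least 3 *Atoh7* UMIs).

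Markers of other cell types had summed levels that differed from list to list and were not equal between the libraries. Of 14 ciliary margin and pigment epithelium markers, 6 were measured. All 6 were at least 2-fold higher in DKO members, beside 5.62% of all genes at the same minimum. The summed level of the 14 markers was 54.9 CPM in the control and 247 CPM in the DKO. *Tyr* and *Slc45a2* were at 0 UMIs in both. *Gja1*, the gap junction gene of the ciliary margin, stood at 10.6 and 85.1 CPM but in only 23 control and 26 DKO members, with a log2 ratio of 3.01 that was 2.07 among members with at least 3 *Atoh7* UMIs. The 12 lens markers summed to 138 CPM in the control and 93.3 CPM in the DKO, with *Foxe3* at 0 in both. The 19 amacrine and horizontal markers summed to 465 and 560 CPM. Of 8 measured, 3 (37.5%) were at least 2-fold higher and 1 (12.5%) lower, beside 5.62% and 1.91% of all genes. *Lhx1* had 0 and 35 UMIs, *Tfap2b* 69 and 9, and *Gad2* stood at 110 and 60.0 CPM. The 11 photoreceptor markers summed to 155 and 115 CPM, the 10 macrophage markers to 4.82 and 5.80 CPM and the 13 mesenchyme and vessel markers to 17.0 and 19.8 CPM. The part of these cells or of their free RNA in the differences above was not tested.

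Levels were set beside those of the neighbouring classes of the same libraries: 498 control and 770 DKO Atoh7 cells, with at least 3 *Atoh7* and fewer than 2 *Isl1* and *Pou4f2* UMIs, and the late ganglion cells. *Ina* stood at 108, 171 and 2120 CPM in control Atoh7 cells, early and late ganglion cells, and at 736, 1279 and 2837 CPM in the DKO. *Tac1* stood at 1.74, 6.75 and 49.1 CPM in the control and 106, 420 and 177 CPM in the DKO. Control levels of both genes thus stood highest in late cells. Of the 868 *Tac1* UMIs of DKO early cells, 485 were in the members without *Atoh7* and 207 in those with at least 3 *Atoh7* UMIs. The rest were in members with 1 or 2 *Atoh7* UMIs. In DKO members with at least 3 *Atoh7* UMIs *Tac1* stood at 147 CPM, below its level in DKO late cells.

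The same 3657 genes, which were chosen for their level in early ganglion cells, were compared between the genotypes in each class. In Atoh7 cells, 136 (3.72%) were at least 2-fold higher and 24 (0.656%) at least 2-fold lower in the DKO, beside 3.96% and 0.793% in early ganglion cells. In late ganglion cells, 19 (0.52%) were at least 2-fold higher and 23 (0.629%) at least 2-fold lower. *Dcx* had log2 ratios of 3.29, 2.39 and 0.05 in Atoh7 cells, early and late ganglion cells. *Sp8* had ratios of -2.01, -2.01 and -1.91. *Igfbp5* had ratios of -2.08, -2.09 and -1.73, while *Gal* had ratios of -2.40, -1.31 and 0.52. These classes share no cells, but they share the library, and the differences between classes were not tested.

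**Figure D4:**
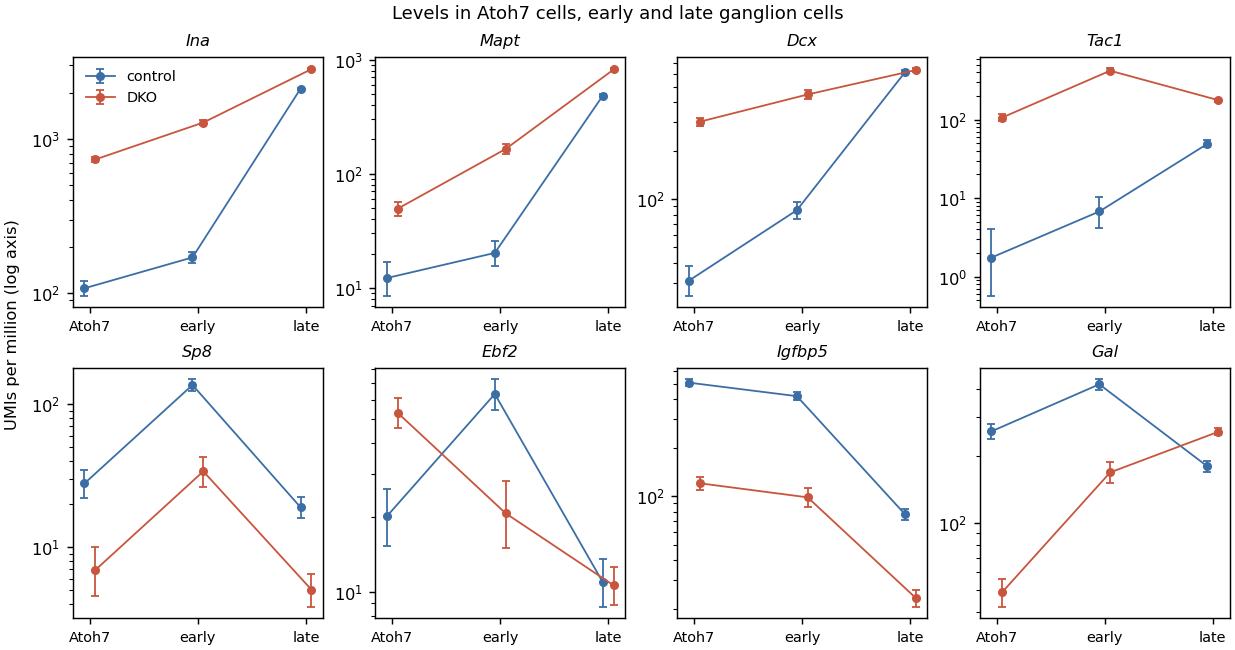
Level of 8 genes (CPM, log axis; exact Poisson 95% intervals) in Atoh7 cells, early and late ganglion cells of the control and DKO libraries; lines join the classes. *Ina*, *Mapt* and *Dcx* stand higher in DKO early ganglion cells than in control ones and differ by less than 2-fold in late cells, and *Sp8* stands lower in the DKO in all 3 classes.

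The DKO members without *Atoh7* were set beside those with it, for genes picked for large differences between these classes and a few others. Against the 264 DKO members with at least 3 *Atoh7* UMIs, the 75 members at 0 had *Tac1* at 1151 instead of 147 CPM, *Crabp1* at 1661 instead of 286 CPM and *Mapt* at 439 instead of 68.0 CPM. *Ly6h* stood at 223 and 18.4 CPM, the contactin-associated gene *Cntnap2* at 164 and 12.0 CPM, and the calcium-binding protein gene *Calb1* at 138 and 4.96 CPM. *Gadd45a* stood at 28.5 instead of 598 CPM, *Gal* at 16.6 instead of 232 CPM and *Igfbp5* at 9.49 instead of 137 CPM. *Uncx* stood at 166 and 160 CPM in the 2 classes, and *Six6* at 71.2 and 46.1 CPM, beside 184 CPM in control members with at least 3 *Atoh7* UMIs. Both DKO classes lay on the same side of the control members with at least 3 *Atoh7* UMIs for each of these genes that was measured there, as in *Tac1* at 7.19 CPM and *Igfbp5* at 437 CPM.

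**Figure D5:**
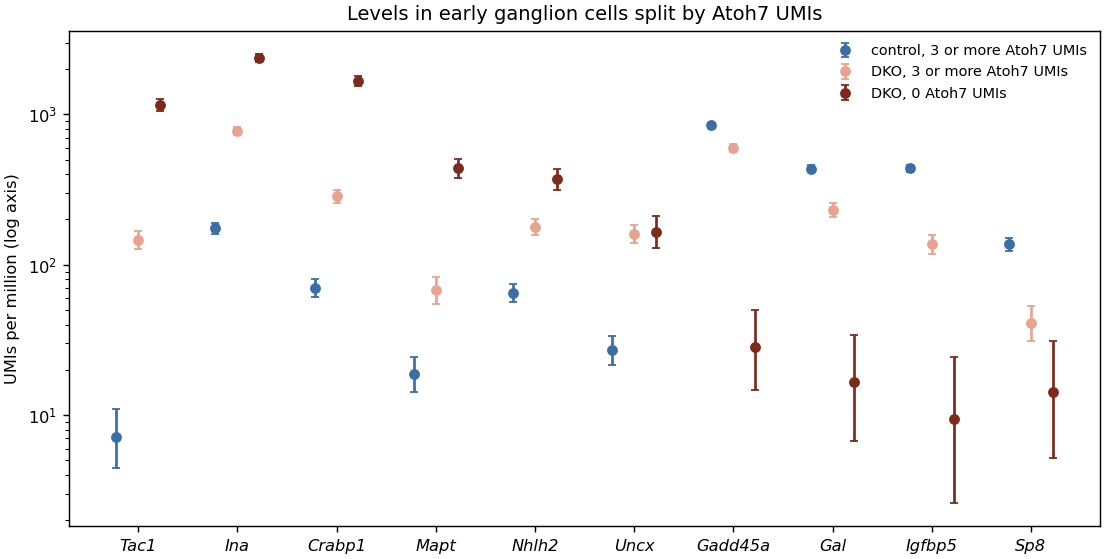
Level of 10 genes (CPM, log axis; exact Poisson 95% intervals) in early ganglion cells split by *Atoh7* UMIs: 441 control and 264 DKO cells with 3 or more, and 75 DKO cells with 0. *Tac1*, *Ina*, *Crabp1*, *Mapt* and *Nhlh2* stand highest and *Gadd45a*, *Gal*, *Igfbp5* and *Sp8* lowest in the DKO cells without *Atoh7*.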

How the data were processed

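Single cells from papain-dissociated E13.5 eyecups were captured with 10x Genomics 3′ v3 chemistry, and the authors counted reads per gene and cell with Cell Ranger 3.1.0 on mm10. The deposited files hold these whole-number UMI counts for 31053 genes, not normalized, with 1 library per genotype. Kept cells had 201 to 5999 genes and 1% to 20% mitochondrial UMIs, and under 20% hemoglobin and 1% *Cryaa* and *Cryab* UMIs. Red blood cells had at least 50% hemoglobin UMIs. No doublets were removed. Scrublet (scanpy 1.11.5) scored them at a threshold of 0.225 and they were left out in an alternative. Members, lists and named genes were chosen with earlier results of these data known.

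Counts were summed over the members of a library and divided by their summed UMIs, per 1000000 (CPM). With 1 library per genotype there is no test. Intervals (95%) are exact Poisson for levels, exact binomial for shares and an exact binomial split for log2 ratios. They cover counting error only, and the number of UMIs behind each value sets their width. A gene was called at 2-fold. A gene at 0 was set to a floor of 3 UMIs over the group, and a list gene counted as measured at 30 UMIs. Genes named in full were the 15 highest and 15 lowest ratios among genes with at least 100 UMIs and 50 CPM, the 10 leading genes of control members, and genes of the lists; *Cntnap2*, *Calb1* and *Ly6h* among members without *Atoh7*, and pairs of genes within cells, were picked after values were seen. Some genes that these rules select are not reported here. Alternatives changed depth, weights, the cell filter, the member limits, the gene minimum and the scale. Simulated counts with known changes were used to test the script. Coordinates are from the GENCODE annotation of the same assembly. Python 3.11.15, numpy 2.4.6, scipy 1.17.1, pandas 2.3.3 and matplotlib 3.10.9 were used.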

Additional observations from a re-analysis of the deposited data

Results flagged for a closer look

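*Ebf2* differed in opposite directions between classes of cells of the same 2 libraries. In early ganglion cells it stood at 63.3 CPM in the control and 20.8 CPM in the DKO, a log2 ratio of -1.61 (-2.12 to -1.12). In Atoh7 cells it stood at 20.2 CPM in the control and 53.2 CPM in the DKO, a log2 ratio of 1.40. In late ganglion cells it was near its lowest in both, at 10.9 and 10.6 CPM. The difference was not tested, since each class has 1 library per genotype. Atoh7 cells and early ganglion cells were divided at 2 *Isl1* and *Pou4f2* UMIs. Members with exactly 2 were 14.7% of control and 31.6% of DKO members, and DKO members were shallower. Whether like cells fell on different sides of that limit in the 2 libraries was not tested. *Ebf2* was also among the genes chosen for high levels in control members, which favours a lower DKO level there.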

How the results depend on the processing

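No paired analysis was possible because control and DKO are 1 library each, which also leaves no replicate to drop. The share of members in the control, 6.60%, was 5.26% with the study's cell filter alone and 4.87% when *Isl1* and *Pou4f2* were both required. In the DKO, 3.78% became 3.28% and 1.66% under these settings and 2.89% when cells were thinned to 2000 UMIs before members were chosen, so the DKO share was the lower one throughout. The 145 higher genes became 35 with that thinning, 66 when members were thinned, 13 on the log2 scale of counts per 10000 plus 1, 48 with both *Isl1* and *Pou4f2*, 73 with at least 3 *Atoh7* UMIs, 57 with a *Pou4f2* UMI and 523 with genes from 30 UMIs. The 29 lower genes became 9 (thinned before), 2 (log2 scale), 16 (both genes), 17 (*Atoh7*), 14 (*Pou4f2*) and 178 (from 30 UMIs). Thinning left 2446 genes to compare when done before and 2890 when done after members were chosen, and the last setting compared 9307. The median of the ganglion cell transcription factors, 0.22, was -0.10 (thinned before) and -0.042 (members thinned). The axon and cytoskeleton median, 0.97, was 0.71 (thinned before), 0.73 (log2 scale), 0.46 (both genes), 0.67 (*Atoh7*) and 0.48 (*Pou4f2*). The ectopic and forebrain median, 1.56, was 1.85 (thinned before), 1.25 (every cell weighted the same), 0.22 (log2 scale), 0.71 (both genes), 0.86 (*Atoh7*) and 0.74 (*Pou4f2*). The *Atoh7* and *Pou4f2* settings were chosen after seeing the data. As a share of the genes compared in each setting, the higher genes were 3.96% in the main setting. That share was 1.43% (thinned before), 2.28% (members thinned), 1.34% (both genes), 2.05% (*Atoh7*) and 5.62% (from 30 UMIs). The cause of these changes was not tested. For the 34 named genes past 2-fold, 431 of 472 alternative values stayed past it, 41 were under it in the same direction and 0 changed direction; 26 of the 41 were on the log2 scale of counts plus 1, which shrinks low genes.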
